A study of Homo sapiens with 6 samples.

Results

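Where the K303R form of estrogen receptor alpha (ERα) bound chromatin in the presence of estradiol (E2) was compared with where the wild-type receptor did, using 2 ChIP-seq peak lists. The members are the peaks of the K303R-DoxE2 list and of the WT-DoxE2 list on chromosomes 1 to 22, merged wherever they overlapped by at least 1 bp. This gave 133146 regions, out of 169433 regions when all 6 lists of the study were merged in the same way. The 2 lists held 103833 K303R peaks and 117710 wild-type peaks. Both came from MDA-MB-453, an established breast cancer line of human origin, positive for the androgen receptor and without functional ERα of its own. The cells carried an inducible K303R or wild-type ERα, and both groups received 2 µg/mL doxycycline and 1 nM E2 for 2 days, after 2 days of growth in medium with 10% serum. The K303R-Dox and WT-Dox libraries came from the same lines with doxycycline and no E2. The Y537S-DoxE2 and Y537S-Dox libraries, from a line with the Y537S receptor, are given for some regions. The antibody D8H8 was used to pull down ERα from the chromatin of 2 plates per library, and each of the 6 groups has 1 library. With no replicates there is no test across conditions, every call compares 2 libraries, and the receptor and the cell line that carries it cannot be told apart. The sources used here do not say whether each line is a single clone, whether the serum was stripped of hormones or how much receptor each line made. Peaks measure binding, so the cell type could not be checked against the expression of its markers.

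ERα is a nuclear receptor that, when it binds E2, pairs with a second receptor molecule and attaches to estrogen response elements, which combine the letters GGTCA with their mirror image. It also reaches DNA through other factors, and in breast cells most of its sites are enhancers far from promoters, opened by the pioneer factor FOXA1. The K303R substitution exchanges a lysine for an arginine in the hinge that joins the DNA-binding and the hormone-binding domains. It lies beside a serine that protein kinase A phosphorylates, and it is known from breast lesions and for growth responses to low estrogen.

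The promoters below are shown because they hold the summits of regions that differed between the K303R and wild-type libraries, or a complete estrogen response element. Each is the stretch of 250 bases upstream of a gene start from RefSeq (build GRCh38.p14), written 5′ to 3′ on the gene's strand. Capitals mark GGTCA on either strand (TGACC when read on the other), the AP-1 letters TGACTCA, the forkhead letters TGTTTAC or, in the last 2 sequences, a complete element of GGTCA and TGACC 3 bases apart. The first 3 promoters had more K303R fragments. RGS12 encodes a regulator of G-protein signalling (chr4:3385425-3385674, plus strand), RBP4 the retinol carrier of blood plasma (chr10:93601236-93601485, minus strand) and ARHGAP45 a GTPase-activating protein (chr19:1065709-1065958, plus strand). The next 2 had fewer. EPB41L2 encodes a membrane-skeleton protein (chr6:131000730-131000979, minus strand) and CCDC126 a coiled-coil protein (chr7:23597132-23597381, plus strand). The last 2 are those of ZNF669, a zinc-finger gene (chr1:247104357-247104606, minus strand), and SLC35B2, a carrier of the sulfate donor into the Golgi (chr6:44257529-44257778, minus strand).
RGS12: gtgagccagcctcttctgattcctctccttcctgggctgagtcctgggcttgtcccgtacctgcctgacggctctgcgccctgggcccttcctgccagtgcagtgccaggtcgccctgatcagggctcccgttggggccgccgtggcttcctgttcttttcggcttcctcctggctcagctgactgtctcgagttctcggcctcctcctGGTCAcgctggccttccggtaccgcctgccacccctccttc
RBP4: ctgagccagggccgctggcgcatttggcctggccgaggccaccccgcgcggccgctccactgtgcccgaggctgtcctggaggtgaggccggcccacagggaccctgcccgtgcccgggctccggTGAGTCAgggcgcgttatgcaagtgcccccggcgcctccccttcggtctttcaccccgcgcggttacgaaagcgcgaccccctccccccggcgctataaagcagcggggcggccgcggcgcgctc
ARHGAP45: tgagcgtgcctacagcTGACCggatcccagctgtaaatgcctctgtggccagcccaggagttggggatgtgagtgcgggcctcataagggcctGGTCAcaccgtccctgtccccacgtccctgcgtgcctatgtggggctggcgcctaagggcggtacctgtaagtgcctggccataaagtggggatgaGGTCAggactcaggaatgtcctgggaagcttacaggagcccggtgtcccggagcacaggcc
EPB41L2: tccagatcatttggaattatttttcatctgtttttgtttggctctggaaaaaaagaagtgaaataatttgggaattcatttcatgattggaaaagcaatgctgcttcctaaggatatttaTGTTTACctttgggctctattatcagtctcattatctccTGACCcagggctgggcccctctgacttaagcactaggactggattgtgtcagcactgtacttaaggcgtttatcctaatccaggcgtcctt
CCDC126: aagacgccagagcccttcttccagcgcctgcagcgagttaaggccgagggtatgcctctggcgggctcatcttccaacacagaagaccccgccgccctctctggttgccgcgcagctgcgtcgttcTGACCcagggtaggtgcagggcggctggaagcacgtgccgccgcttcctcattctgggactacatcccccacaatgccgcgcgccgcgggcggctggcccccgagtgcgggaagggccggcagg
ZNF669: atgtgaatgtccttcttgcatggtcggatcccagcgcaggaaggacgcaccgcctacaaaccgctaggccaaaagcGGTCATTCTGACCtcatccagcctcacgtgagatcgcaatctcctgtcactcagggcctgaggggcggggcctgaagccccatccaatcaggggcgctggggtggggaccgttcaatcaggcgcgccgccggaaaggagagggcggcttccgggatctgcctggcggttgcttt
SLC35B2: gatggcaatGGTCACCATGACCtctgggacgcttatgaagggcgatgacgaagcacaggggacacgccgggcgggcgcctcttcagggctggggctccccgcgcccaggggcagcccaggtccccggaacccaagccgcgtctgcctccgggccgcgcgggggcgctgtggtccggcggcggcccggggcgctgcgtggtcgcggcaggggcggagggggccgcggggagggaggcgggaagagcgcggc

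The size of a region was taken as the number of DNA fragments over its summit, a whole number recovered from the fold and the p-value that the authors gave for each peak. Ratios of summit fragments are K303R over wild type, divided by the median ratio of the well-covered regions, so 1 (0 on the log2 scale) is the middle region. Well covered means present in both lists with a mean of at least 50 fragments. Ratios without E2 were divided by their own median over those of these regions that were in both lists there. On the log2 scale this median was -0.4, against -0.12 with E2, so equal fragments without E2 give a ratio over 1. A region was called higher or lower where its ratio passed 1.5-fold and an exact counting interval with an error of 0.1% excluded 1. Intervals printed are exact 95% intervals, except that Wilson intervals are used for shares, and all cover counting error only. At 50 fragments in each library such an interval reaches from 0.662 to 1.511, and at 100 from 0.75 to 1.333. The lists hold no read totals, so depth is known only through the fragments at summits. Their median was 27 in the K303R list and 27 in the wild-type list, and the highest value was 441 in the K303R list and 423 in the wild-type list. The lowest local background, the fragments expected at a peak by the authors' peak caller, was 1.12 in the K303R list and 1.155 in the wild-type list. Names inside the K303R and wild-type lists carry the same date-like tag.

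The RGS12 promoter had 132 fragments in K303R cells and 55 in wild-type cells, a ratio of 2.6 (95% interval 1.89 to 3.63). The RBP4 promoter, with an AP-1 motif and no GGTCA, had 204 fragments in K303R cells and 105 in wild-type cells, and the ARHGAP45 promoter, with 3 GGTCA motifs, had 114 and 58. All 3 were thus higher in K303R with E2. Without E2 the RBP4 promoter had 171 fragments in K303R cells and 82 in wild-type cells and met the rule for a call again, as did ARHGAP45, with 96 and 70, whereas RGS12, with 59 and 43, did not. The EPB41L2 promoter went the other way, with 12 fragments in K303R cells and 91 in wild-type cells (ratio 0.143, 95% interval 0.0713 to 0.262). It had 15 and 91 fragments in the same lines without E2. CCDC126 had 32 fragments in K303R cells and 72 in wild-type cells with E2 (ratio 0.482, 0.308 to 0.741). Without E2 it had 37 and 42, a ratio of 1.16 (0.725 to 1.85) that was not called. The complete elements stood in promoters without a call. ZNF669 had 244 fragments in K303R cells and 224 in wild-type cells, and SLC35B2 had 85 and 116.

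Most regions were common to both receptors. Of the 133146 regions, 86800 (65.2%, 64.9 to 65.4) were in both lists, 16322 (12.3%, 12.1 to 12.4) only in the K303R list and 30024 (22.5%, 22.3 to 22.8) only in the wild-type list. Those of a single list were weak. Their median was 12 fragments where K303R alone had a peak and 13 where wild type alone had one, against 44 for the stronger peak of shared regions. In the libraries without E2, 46.1% of the regions found with K303R alone overlapped a K303R-Dox peak and 37.8% a WT-Dox peak. Of those found with wild type alone, 25.7% overlapped a K303R-Dox peak and 60.5% a WT-Dox peak. No other list of the study held a peak at 26.8% of the K303R-only regions (4377 of 16322), at a smaller share of the wild-type-only regions (6003 of 30024) and at 1.0% of the shared regions.

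None of the 10000 K303R regions with the highest −log10 p lacked a wild-type peak, and none of the 10000 highest wild-type regions lacked a K303R peak, each of which allows a share of up to 0.0384%. Among the top 50000 of each list, 570 K303R regions lacked a wild-type peak and 1403 wild-type regions lacked a K303R peak. Ranked by the authors' fold instead, 2 K303R and 26 wild-type regions of the top 10000 lacked a partner, and 1137 and 2775 of the top 50000. The most significant K303R-only region lay in TOM1, a gene of endosome sorting (chr22:35328463-35328978 on hg38), with 85 K303R fragments and no wild-type peak. Without E2 it had 70 fragments in K303R cells and 12 in wild-type cells. The 5 most significant wild-type-only regions had 73 to 106 wild-type fragments. The first, 612845 bp from MAP3K7, had 99, and without E2 it had 22 fragments in K303R cells and 56 in wild-type cells. The second, 313553 bp from GULP1, had 106, and 15 and 52 without E2. The other 3 lay in SFMBT2, a Polycomb-associated gene, with 96 wild-type fragments, in CYYR1 with 85 and in RASEF, a RAB-family gene, with 73. Without E2 these 3 again had no K303R peak, and wild-type cells had 87, 75 and 60 fragments.

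Among shared regions, 33580 were well covered (38.7% of them, 25.2% of all regions) and 53220 were not. The K303R library had slightly fewer fragments in the typical well-covered region, with a ratio of 0.922 before centring. After centring, 76.1% of the well-covered regions lay within 1.5-fold. K303R was called higher at 1853 regions, which is 5.52%, and lower at 2984, which is 8.89%. Scaled by the lowest local background in place of the median, 1359 were higher and 3639 lower. Past 2-fold, 730 were called higher and 1725 lower, and past 4-fold 9 and 109. The median called-higher region had 114 fragments in K303R cells and 63 in wild-type cells. The median called-lower region had 47 in K303R cells and 111 in wild-type cells.

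The spread of the ratio was smallest among the strongest regions. Where the mean was 200 fragments or more, 1.43% of 3496 regions were higher in K303R and 0.343% lower, and the SD of the log2 ratio over regions was 0.21. Between 50 and 75 fragments, 5.92% of 11123 regions were higher and 12% lower, with an SD of 0.69. The highest summits were close to each other in every library, with 403 to 441 fragments in all 6 lists, so differences at the top of the range may not be measurable. Without E2, where the typical log2 ratio before centring was -0.4, HID1 had 437 fragments in K303R cells and 434 in wild-type cells. The summit with the most fragments in the K303R list lay in HID1, a Golgi-associated gene on chromosome 17, with 441 fragments in K303R cells and 417 in wild-type cells (ratio 1.15, 1 to 1.31). The summit with the most in the wild-type list lay in NHERF1, an estrogen-induced scaffold gene on the same chromosome, with 430 fragments in K303R cells and 423 in wild-type cells. The next summits of the K303R list lay at NAT9, CDR2L and CACNG4, whose ratios of 1.12, 1.16 and 1.15 were also close to 1.

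Among called regions in a protein-coding gene or within 25 kb of one, those most in excess in K303R cells lay at genes of many kinds, several of them on chromosome 8. The first 15, 1 per gene, had 83 to 186 fragments in K303R cells and 19 to 52 in wild-type cells, and ratios of 3.32 to 5.14. They were ranked by the interval bound nearest to 1 and not by the ratio itself. This ranking used these same values, so the gap between the 2 ranges follows from the choice of regions. Regions farther from genes are not among them, such as one 26367 bp from TMEM92, with 92 fragments in K303R cells and 24 in wild-type cells (4.16, 2.63 to 6.82). The first lay in SYN3, a synaptic vesicle gene (chr22:33006606-33007244), with 90 fragments in K303R cells and 19 in wild-type cells (ratio 5.14, 3.11 to 8.93). The largest in fragments lay in STK32C, a kinase gene, with 186 in K303R cells and 52 in wild-type cells. One lay 1980 bp from SLC45A3, an androgen-regulated prostate and apocrine gene (chr1:205655503-205656074), with 91 fragments in K303R cells and 22 in wild-type cells (ratio 4.49, 2.79 to 7.51). Others lay at ANO1, a chloride channel gene (85 K303R and 21 wild-type fragments), KCNK17, a potassium channel gene (113 and 31), PLIN3, a lipid-droplet gene (87 and 24), and ASB2, a ubiquitin-ligase subunit gene (150 and 49). PTP4A3, TSNARE1 and GPR20 lay between 140000001 and 145000000 on chromosome 8, and STK32C between 130000001 and 135000000 on chromosome 10. Each of these windows had a median log2 ratio of 0.49, the highest of all windows of 5 Mb. DCSTAMP lay elsewhere on chromosome 8. Without E2, 11 of the 15 were again called higher, as were 4.86% of all regions compared there. At ANO1 the K303R-Dox library had 24 fragments and the WT-Dox library no peak, and at CYTH4 the 83 K303R and 23 wild-type fragments with E2 stood beside 28 and 29 without. The CYTH4 ratio without E2 was 1.27 (0.728 to 2.21).

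Under the same limit of 25 kb, 15 lower regions were chosen by the same ranking on these values. They had 10 to 20 fragments in K303R cells and 86 to 126 in wild-type cells, and ratios of 0.119 to 0.189. The limit matters here, since 33.8% of all lower regions lay over 100 kb from a gene. One of these, 984617 bp from SUCLG1, had 14 fragments in K303R cells and 95 in wild-type cells (0.16, 0.0842 to 0.282). FRMD5, a cell-adhesion gene (chr15:44141820-44142343), had 10 fragments in K303R cells and 91 in wild-type cells (ratio 0.119, 0.0553 to 0.229). XRCC4, a gene of DNA end joining, had 12 and 101, CTNNA2, the neuronal alpha-catenin gene, 13 and 102, and LRRTM4, a synaptic adhesion gene, 19 and 126. KALRN, an exchange-factor gene, had 14 fragments in K303R cells and 86 in wild-type cells with E2, and 8 and 90 without. Of the 15 near genes, 13 were called lower without E2 as well, as were 6.7% of all regions compared there. In the Y537S-DoxE2 library these 15 regions had 35 to 173 fragments, while the 15 higher regions had 14 to 105 there.

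**Figure D1:**
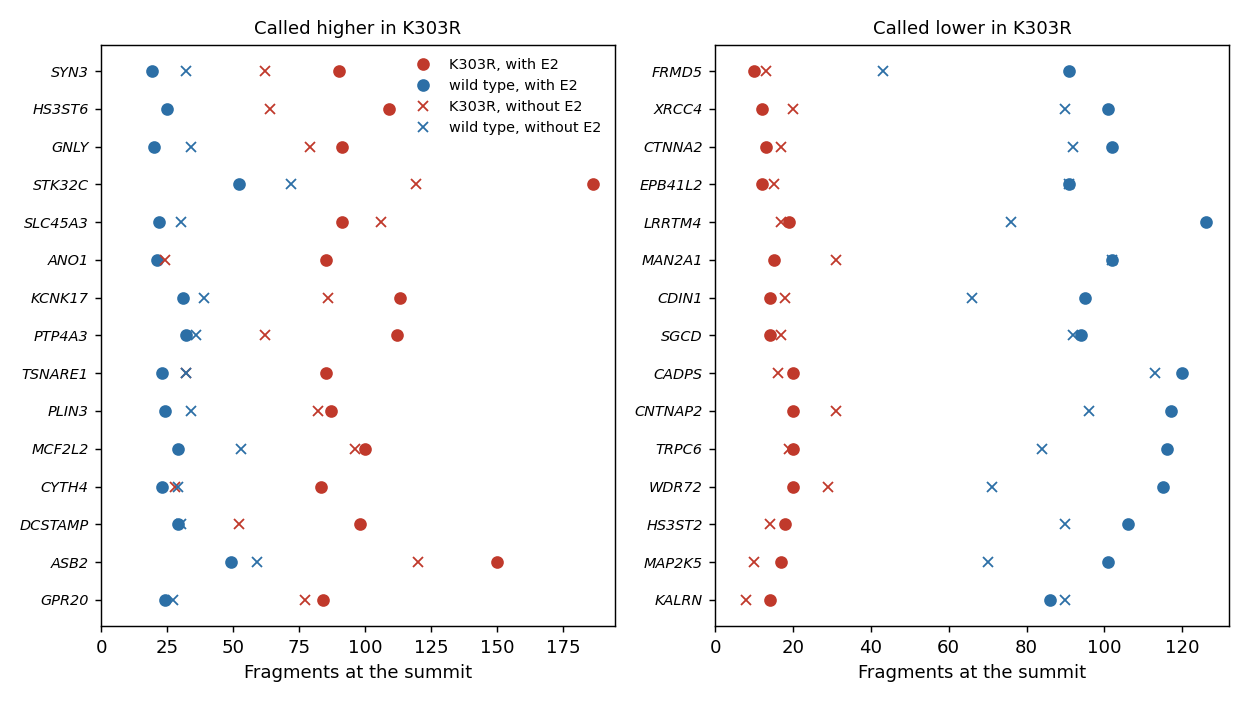
Fragments at the summit (horizontal axis) of 15 regions called higher (left) and 15 called lower (right) in K303R with E2. They rank first by the interval bound nearest to 1 among called regions within 25 kb of a gene, and are named by that gene. Filled circles are the libraries with E2 and crosses those without, red for K303R and blue for wild type, with 1 library each, and no cross stands where a library had no peak. With E2 the K303R circles lie at 83 to 186 on the left and at 10 to 20 on the right.

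The libraries without E2 took no part in the calls and come from the same 2 lines. Of the 1826 higher regions that were in both lists without E2, 738 (40.4%) were called higher there and 0 lower, their median ratio was 1.587, and 96.3% had a ratio over 1. Of the 2952 lower regions, 1356 (45.9%) were called lower there and 1 higher, with a median ratio of 0.582. Over all 33206 regions compared without E2, 4.86% were called higher and 6.7% lower. Both shares were several times those of all regions. Because the lines are the same, this repeats the measurement of the lines and not of the receptor in other cells.

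**Figure D2:**
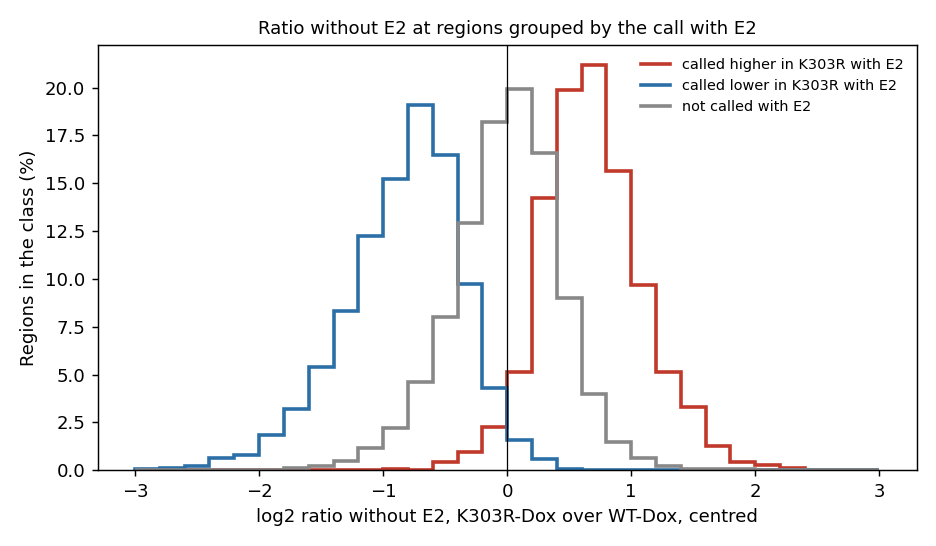
Share of regions (vertical axis, percent of each class) by log2 ratio of K303R-Dox over WT-Dox without E2 (horizontal axis, bins of 0.2, values past 3 put in the end bins). Regions called higher in K303R with E2 (red) centre on a ratio of 1.587 and those called lower (blue) on 0.582, on either side of the regions not called (grey).

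The ratio followed gene density over the whole set. Places with few genes had fewer K303R fragments and places with many genes more. Where 0 to 4 protein-coding genes lay within 500 kb on either side, 2.38% of 9540 regions were higher in K303R and 17.7% lower, with a median log2 ratio of -0.24. Where 40 or more did, 14.9% of 781 regions were higher and 0.64% lower, with a median of 0.26. The 3 classes between had medians of -0.03, 0.10 and 0.20. In fragments, the median was 77 in K303R cells and 104 in wild-type cells in the poorest class, and 107 and 95 in the densest. Without E2 the same 5 classes, from poorest to densest, had medians of -0.21, -0.02, 0.09, 0.19 and 0.27. The local background moved with it. Its median log2 ratio of K303R over wild type, which was not centred, was -0.31 in the poorest and 0.22 in the densest class. The part of the background in the result was not tested. Y537S over wild type with E2, which shares the wild-type library, gave -0.09, -0.02, 0.04, 0.12 and 0.28.

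**Figure D3:**
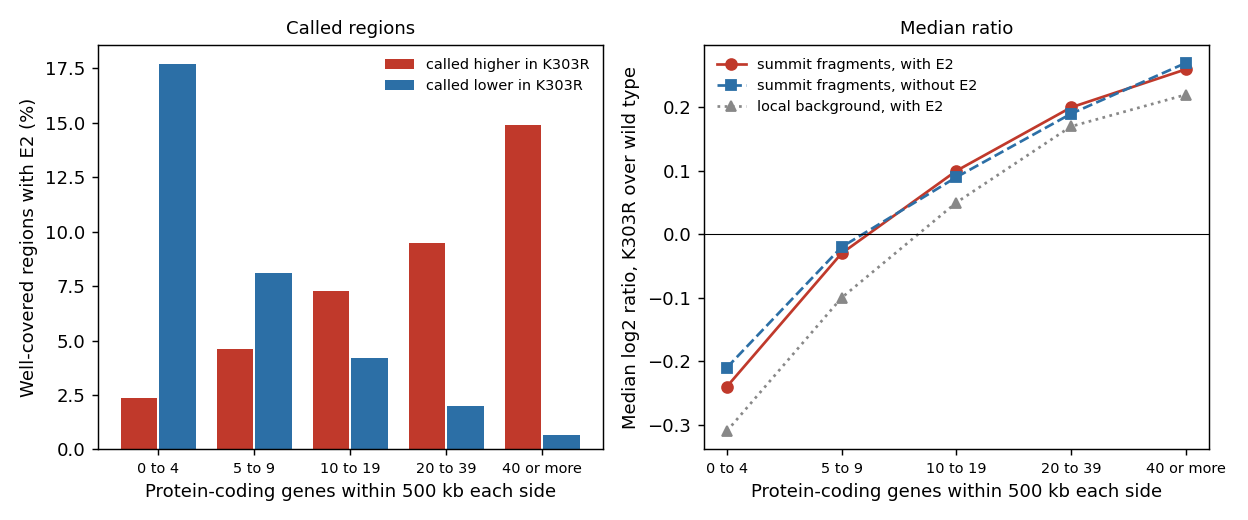
Left, share of well-covered regions (percent) called higher (red) and lower (blue) in K303R with E2, by the number of protein-coding genes within 500 kb on either side. Right, median log2 ratio of K303R over wild type. Circles are summit fragments with E2, squares those without, and triangles the local background with E2, which was not centred. All climb towards the gene-dense classes, the summits with E2 being at -0.24 in the poorest and at 0.26 in the densest.

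Distance to the nearest gene end, meaning either end of a protein-coding gene span, gave a matching order. Within 1 kb of the end of a protein-coding gene span, 9.01% of 2175 regions were higher in K303R and 1.84% lower (median log2 ratio 0.19). Beyond 200 kb of any gene end, whether inside a long gene or outside genes, 1.9% of 3941 were higher and 22.4% lower (median -0.31). Of the regions called higher, 10.6% lay within 1 kb of a gene end and 6.37% over 100 kb from a gene, against 6.48% and 15.5% of all well-covered regions. Of those called lower, 1.34% lay within 1 kb and 33.8% over 100 kb away. Each order was also seen within classes of the other. Beyond 10 kb of a gene end the median was 0.17 in places with 20 or more genes and -0.25 in those with 0 to 4. Within 1 kb it was 0.26 and 0.16. Peaks of a single list followed the same order. In the poorest class 10.3% of 46948 regions were K303R-only and 30.3% wild-type-only, and in the densest 15.1% of 2466 were K303R-only (13.8 to 16.6) and 13.0% wild-type-only (11.7 to 14.4).

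Few promoters were lower in K303R, and few other regions close to gene ends were. A promoter window is the 250 bases upstream of a gene start from RefSeq. Summits of well-covered regions lay in 380 windows, from 355 protein-coding genes. Of these, 27 (7.11%) were higher in K303R and 2 (0.526%) lower, against 5.52% and 8.89% of all well-covered regions. Within 1 kb of a gene end the shares of regions were 9.01% and 1.84%, and 11.4% and 0.471% where 20 or more genes lay around. Nothing particular to promoters can thus be read from the low count. Windows are counted here, and overlapping windows can share a region. The median log2 ratio was 0.12. In the 157 windows with 70% or more of G and C, 3.82% were higher and 0% lower, with a median of 0.07. GGTCA on either strand was present in 20 of the 27 higher windows, in both lower ones, in 71.8% of the 380 and in 35.6% of all 21040 windows. The 273 windows with it had a median log2 ratio of 0.12 and the 107 without it 0.09. A complete element, GGTCA and TGACC 3 bases apart, was present in 2 of the 380 windows (0.526%) and in 0.038% of all windows. TGACTCA was present in 6.84% of the 380 and 3.99% of all, TGTTTAC in 2.37% and 2.87%, AGATAAG in 1.32% and 2.26%, and ACA and TGT 3 bases apart in 3.16% and 3.94%. GGTCA lies inside every complete element, and the other motifs were searched on both strands without regard to overlap. A match is a run of letters and not a shown site.

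By chromosome, the K303R to wild-type ratio was highest on chromosome 19, the chromosome with the most genes around its regions. Its median log2 ratio was 0.34, with 17.5% of 800 regions higher and 0.75% lower, and 0.38 without E2. The log2 ratio of the local background there, centred on its own median, was 0.41. Chromosomes 8 and 16 followed at 0.14, then 22 at 0.13 and 10 and 17 at 0.12. The lowest medians were -0.22 on chromosome 15, -0.18 on chromosome 4 and -0.15 on chromosome 13. Chromosome 8 combined a high ratio with few genes, with a median of 5.0 genes around its regions against 30.0 on chromosome 19, and 12.6% of its regions were higher. It held 12% of all higher regions and 1771 of the 33580 well-covered regions. Chromosome 19 held 7.56% of the higher regions and 800 of the well-covered ones. Along the chromosomes, 500 windows of 5 Mb held at least 20 well-covered regions. The highest medians were 0.49 in the window from 140000001 to 145000000 on chromosome 8, where 79 of 239 regions were higher and 2 lower, and 0.49 in the window from 130000001 to 135000000 on chromosome 10. The lowest was -1.17 in the window from 80000001 to 85000000 on chromosome 2, where 11 of 21 regions were lower and 0 higher. Without E2 these 3 windows had medians of 0.45, 0.46 and -0.93. Copy number differences between the lines were not measured, and their part in these values was not tested.

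**Figure D4:**
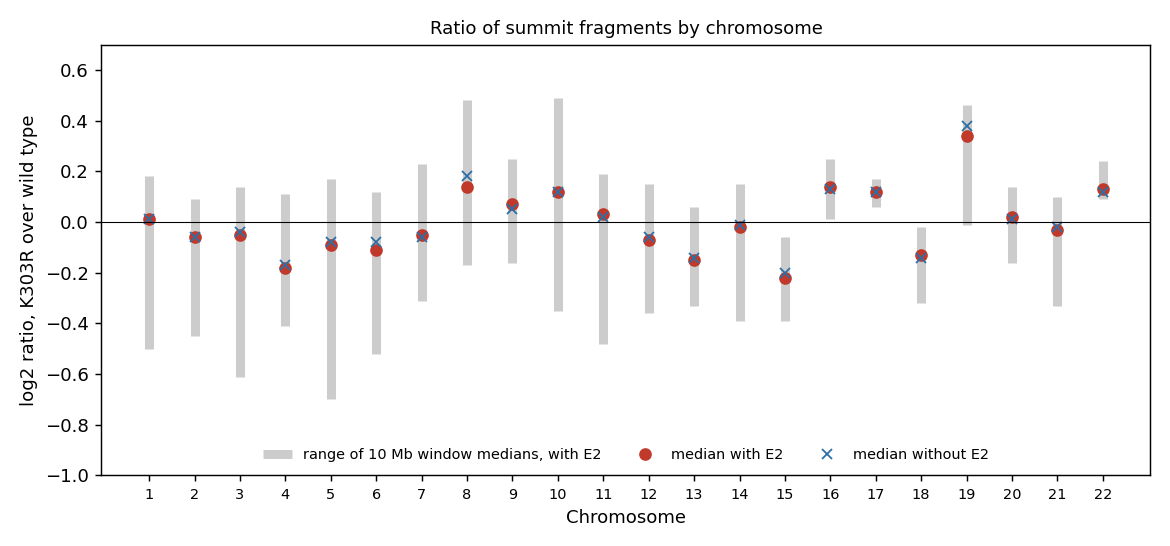
Median log2 ratio of summit fragments, K303R over wild type (vertical axis), for each chromosome with E2 (red circles) and without E2 (blue crosses), with the range of the medians of 10 Mb windows with E2 (grey bars). Chromosome 19 is highest at 0.34 and chromosome 15 lowest at -0.22, and the crosses lie close to the circles.

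At known ERα target genes few of the strongest regions were called. Of 44 target genes, 41 had a well-covered region within 25 kb. Their strongest regions had ratios of 0.55 to 1.49 with a median of 1.08, 34 of the 41 were over 1, and 0 were called higher and 2 lower. Regions were chosen here for strength, and among all regions with 200 fragments or more 1.43% were higher and 0.343% lower, so nothing particular to target genes can be read from the low count. GREB1, an estrogen-induced growth regulator, had 323 fragments in K303R cells and 289 in wild-type cells (ratio 1.21, 1.03 to 1.43). PGR, the progesterone receptor gene, had 335 and 331, TFF1, the trefoil factor gene, 276 and 232, and XBP1, a transcription factor of the secretory pathway, 370 and 340. These 4 differed by less than 1.5-fold. The 2 called lower were ELOVL2, a fatty acid elongase gene, with 106 fragments in K303R cells and 209 in wild-type cells (ratio 0.55, 0.431 to 0.698), and AGR3, an anterior-gradient protein gene, with 110 and 183 (0.652, 0.51 to 0.83).

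**Figure D5:**
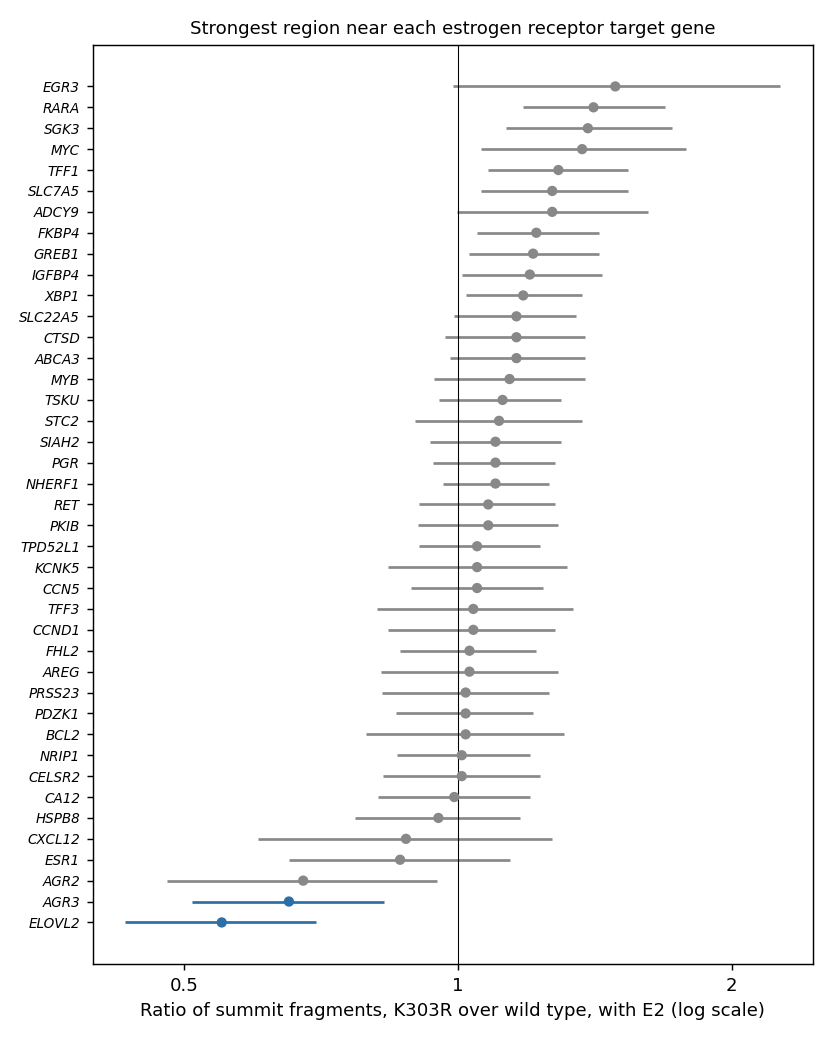
Ratio of summit fragments, K303R over wild type with E2 (horizontal log axis), at the strongest well-covered region within 25 kb of each of 41 estrogen receptor target genes, with exact 95% counting intervals. Blue marks the 2 regions called lower (ELOVL2 and AGR3), grey those not called, and none was called higher.

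Counting all 213 regions near these target genes, 14 were higher (6.57%) and 14 lower (6.57%), against 5.52% and 8.89% of all regions, and the median log2 ratio was 0.12. The calls lay mostly in secondary regions beside a stronger one that was not called. Secondary regions also make up most of the 213, so nothing particular to target genes can be read from this. Higher ones were found at 9 genes, with ratios of 1.58 to 2.22. KCNK5, an estrogen-induced potassium channel gene, had 3 of 7, with 92 against 56, 95 against 49 and 94 against 46 fragments in K303R and wild-type cells. XBP1 had 2 of 3, with 153 against 97 and 162 against 100. STC2, a secreted glycoprotein gene, had one with 118 fragments in K303R cells and 61 in wild-type cells (ratio 2.1, 1.53 to 2.91). RARA, the retinoic acid receptor gene, had one with 71 and 38, CTSD, the cathepsin D gene, one with 111 and 68, and TSKU one with 168 and 105. RET, a receptor kinase gene, had one with 222 fragments in K303R cells and 152 in wild-type cells, and SLC7A5, an amino acid carrier gene, one with 165 and 112.

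Lower ones were found at 10 genes, with ratios of 0.408 to 0.652. BCL2, the survival gene, had 3 of 6, with 87 against 150, 64 against 145 and 43 against 89 fragments in K303R and wild-type cells. TPD52L1 had 2 of 9, with 76 against 152 and 32 against 85, and FHL2, a LIM-domain cofactor gene, 2 of 13, with 77 against 146 and 45 against 94. PKIB, an inhibitor of protein kinase A, had one with 85 fragments in K303R cells and 190 in wild-type cells (0.485, 0.371 to 0.63). PGR had one with 41 and 91, SIAH2, a ubiquitin ligase gene, one with 34 and 83, AGR2 one with 49 and 99, and PRSS23, a protease gene, one with 110 and 190. ELOVL2 and AGR3 complete the 10. Without E2, 4 of the 14 higher and 7 of the 14 lower regions met the same call.

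ESR1, which encodes ERα, spans chr6:151656672-152129619 and held 24 regions, of which 15 were in both lists, 2 only in the K303R list and 7 only in the wild-type list. Of its 6 well-covered regions, 3 were higher in K303R and 0 lower. The first, near the start of the span (chr6:151657975-151658603), had 120 fragments in K303R cells and 63 in wild-type cells (ratio 2.07, 1.51 to 2.85). The next (chr6:151807308-151808398) had 88 and 52, and the third (chr6:151832975-151833934) had 117 and 76. Without E2 these had 101 and 86, 74 and 66, and 91 and 98 fragments. After centring, the ratios without E2 were 1.55 (1.15 to 2.08), 1.48 (1.04 to 2.09) and 1.22 (0.908 to 1.64), and none was called. The strongest ESR1 region had 94 fragments in K303R cells and 118 in wild-type cells and was not called. DNA of the introduced receptor that matches ESR1 exons cannot be told apart from the gene's own in these lists.

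Near genes of androgen response, luminal identity and signalling, calls are read against 5.52% of all regions higher and 8.89% lower. Some lists of genes with other roles also had more higher than lower calls, such as immune cell genes (4 and 2 of 32) and housekeeping genes (2 and 0 of 31). Neuronal genes (3 and 3 of 36) and hepatocyte genes (1 and 1 of 35) had equal numbers. Of 83 regions near androgen receptor and apocrine genes, 9 were higher and 4 lower (10.8% and 4.82%, median log2 ratio 0.15). By gene the calls were even, with higher regions near 4 genes and lower ones near 4. All 4 regions of SPDEF, an ETS factor of luminal and apocrine cells, were higher, with 136 against 76, 111 against 54, 129 against 68 and 110 against 56 fragments in K303R and wild-type cells. The strongest region of NDRG1, a stress and androgen response gene, had 264 fragments in K303R cells and 171 in wild-type cells. STEAP4, a metalloreductase gene, was lower, with 44 and 148 (ratio 0.322, 0.225 to 0.454), and it had 43 and 147 without E2. FKBP5, TMPRSS2 and PMEPA1, common androgen receptor targets, had strongest regions at ratios of 0.858, 1.04 and 1.06 that were not called.

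Of 91 regions near luminal epithelial genes, 10 were higher, near 7 genes, and 4 lower, near 4 genes (11% and 4.4%, median 0.23). The region counts became 6 and 5 when ratios were centred within 5 Mb windows. GRHL2, a grainyhead factor of epithelial cells, had 3 of 11 higher, among them one with 185 fragments in K303R cells and 104 in wild-type cells. ESRP1, an epithelial splicing factor gene, had 122 and 54 (ratio 2.45, 1.76 to 3.44), and MUC1, a mucin gene, 155 and 86. FOXA1 had one lower region, with 66 fragments in K303R cells and 126 in wild-type cells. GATA3, the luminal zinc-finger factor gene, had 121 and 121 at its strongest region. Of 30 regions near basal and mesenchymal genes, 1 was higher and 2 lower. CDH2, the N-cadherin gene, had 26 fragments in K303R cells and 93 in wild-type cells.

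Of 86 regions near genes of protein kinase A, insulin-like growth factor and ERBB signalling, 10 were higher and 6 lower (11.6% and 6.98%, median 0.13). The shares of all regions were 5.52% and 8.89%, and scaling by the lowest local background gave 7 and 7 here. By gene the calls were even, with higher regions near 5 genes and lower ones near 5. ERBB2, a receptor kinase gene, had 3 of 10 higher, the largest in ratio with 84 fragments in K303R cells and 27 in wild-type cells (3.37, 2.16 to 5.42). Its strongest region had 315 and 305. AKT1, a survival kinase gene, had 3 of 8 higher and AKT2 2 of 4. IGF1R, the insulin-like growth factor receptor gene, had 2 of 9 lower, with 63 against 125 and 21 against 91 fragments in K303R and wild-type cells. PRKAR1A, a regulatory subunit of protein kinase A, had one lower, with 97 and 176, and PRKACA, a catalytic subunit, had 218 and 217 at its strongest. Of 61 regions near coregulators, 6 were higher and 0 lower (9.84% and 0%, median 0.19). The 6 higher regions lay near only 2 genes. Centring within 5 Mb windows left 1 higher and 1 lower, and scaling by the lowest local background 3 and 2.

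Lists of genes with other roles gave medians of 0.01 to 0.23. Housekeeping genes had 2 of 31 regions higher and 0 lower (median log2 ratio 0.16), cell cycle genes 2 of 38 higher and 1 lower (0.14), immune cell genes 4 of 32 higher and 2 lower (0.20) and neuronal genes 3 of 36 higher and 3 lower (0.23). Hepatocyte genes had 1 of 35 higher and 1 lower, with a median of 0.01. The regions near androgen receptor, luminal and signalling genes lay in places with a median of 13.0, 12.0 and 10.0 genes, against 8.0 for all well-covered regions, and the part of gene density in these medians was not tested.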

How the data were processed

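ERα ChIP-seq of MDA-MB-453 cells was analysed from the deposited peak lists, 1 per library. Tools named in the submitters' processing notes are MACS2, Bowtie2, bedtools, Picard and SAMtools, with build hg38. No control library, peak threshold or read filter is given in the sources used here. For each peak the authors deposited a score (not used), a fold (a ratio to local background), and −log10 values of p-value and q-value. The whole number of summit fragments and the local background were solved from the fold, with a pseudocount of 1, and the p-value, and met the deposited p-value within 0.01% for 100% of peaks in all 6 lists. The solution and the calls were tested on simulated data. Groups come from the sample titles. The tools were Python 3.11.15, numpy 2.4.6, pandas 2.3.3, scipy 1.17.1 and matplotlib 3.10.9. Gene spans and promoters are from RefSeq (GRCh38.p14), and a region is near a gene within 25 kb. Named regions are 15 called higher and 15 called lower within 25 kb of a gene, ranked by the interval bound nearest to 1. Others are the strongest region of each list gene, the called ones near estrogen receptor targets and those at ESR1. The rest are the 5 strongest and the 5 most significant in a single list per library, those called in both treatments and those called oppositely. Members and lists were chosen with earlier results of these data known. Alternatives were other centrings, filters, call rules and overlap rules. A gene of the coregulator list is not reported here by name.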

Additional observations from a re-analysis of the deposited data

Results flagged for a closer look

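The ratio of K303R over wild type differed between the treatments at few regions. Of 33206 regions in all 4 lists, the ratio was higher with E2 than without at 64 (0.193%) and lower at 82 (0.247%), by 1.5-fold or more with a counting interval (normal approximation on the log scale, error 0.1%) that excluded no difference. Of the 64, 23 were called higher with E2, and of the 82, 40 were called lower with E2. This comparison was added after seeing the data, rests on 1 library per group and was not tested across replicates.

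The ratio with E2 divided by that without was 5.88 at RNF144A, where K303R and wild-type cells had 50 and 53 fragments with E2 and 36 and 272 without. It was 4.18 at CSGALNACT1, 3.61 at ZMIZ1, 3.55 at TXNDC11, 3.38 at CPNE5 and 3.06 at JAG2. It was 0.158 at RNLS, with 46 and 61 fragments with E2 and 228 and 58 without, 0.182 at BSND, 0.265 at SPRY4, 0.29 at DNA2 and 0.251 at IL17B. At MB21D2, the only region called in opposite directions, it was 0.251, with 60 and 140 fragments with E2 and 172 and 122 without. At several of these a single library without E2 stood far above the rest. It was WT-Dox at RNF144A (272) and CPNE5 (178), and K303R-Dox at RNLS (228), BSND (191) and SPRY4 (182). The ratio with E2 was close to 1 at RNF144A (1.02) and SPRY4 (1.01), but not at ZMIZ1 (1.66) or DNA2 (0.26). The 12 regions were 291 to 684 bp wide, against a median of 594 bp for well-covered regions, the widest being ZMIZ1 and the narrowest CPNE5.

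Chromosome X, which the comparison left out, held 3304 peaks in the K303R list and 4008 in the wild-type list with E2, with medians of 22 and 23 fragments.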

How the results depend on the processing

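No paired analysis was possible because each group has 1 library. Counts of called regions followed the filter and the call rule. With a mean of at least 20 fragments, 3197 regions were higher in K303R and 4597 lower. At 100 there were 600 and 1015, with no filter 3043 and 4789, and past 2-fold 730 and 1725. Scaling by the lowest local background gave 1359 and 3639, and centring within 5 Mb windows 1575 and 2185. The median log2 ratio of places with 20 or more genes exceeded that of places with 0 to 4 by 0.44. An added check, chosen after seeing the data, gave 0.33 with centring within each chromosome, 0.13 within 5 Mb windows, 0.53 at a mean of at least 20 and 0.31 at 100. The span between the highest and lowest chromosome medians was 0.57, and 0.49 at 100. Of regions past 2-fold with E2, 48.7% of the higher and 54.6% of the lower met the same call without E2. Under the lowest-background scaling the medians of the hepatocyte list (-0.07) and of chromosomes 1 (-0.06), 11 (-0.04) and 20 (-0.06) turned negative. At a mean of 100 the cell cycle (-0.05) and hepatocyte (-0.04) lists and chromosome 20 (-0.01) did, as did the hepatocyte list within 100 kb (-0.01). With lists of equal length, 21103 regions were in the K303R list only and 21169 in the wild-type list only. None of 43 named called regions lost its call under the 3 other centrings. These were chosen for large ratios, or for calls in both treatments or in opposite directions, so a small shift could hardly remove a call. Other called regions near list genes were not followed one by one. Counts of higher regions near luminal and coregulator genes fell within 5 Mb windows. Apart from the counting changes that the filters and rules make by construction, the causes were not tested.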
